A study of Mus musculus with 26 samples.

Results

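The 10 genes followed here encode the adhesion molecules with which endothelial cells (ECs) hold on to each other and to passing leukocytes: Selp, Sele, Vcam1, Icam1 and Icam2 on the leukocyte side, and Cdh5, Pecam1, Esam, Jam2 and F11r at the junctions between ECs. They were chosen by name, and all 10 had a row among the 16426 genes of each single-cell count table and among the 17623 genes of each FPKM table. The single-cell data were 2 droplet libraries of mouse RPE/choroid, the retinal pigment epithelium with the vascular layer beneath it, 1 from B6129PF1/J and 1 from C57BL/6J mice at 90 d of age, each from pooled tissue of 1 male and 1 female mouse and sorted for nucleated cells with intact membranes. The bulk data were whole RPE/choroid from mice on C57BL/6J, 3 Ihh+/+ controls and 3 with Ihh deleted in ECs (Ihh iΔEC/iΔEC), 6 months old and given tamoxifen 12 weeks earlier, and cultured GLI1+ cells given DMSO or 100 nM of the Smoothened agonist SAG for 24 h, in 3 libraries each. Both groups of the Ihh comparison carried the Cdh5-PAC-CreERT2 transgene and received tamoxifen, so that the control differed in its Ihh alleles and not in Cre. That Cre is driven by the promoter of Cdh5, one of the 10 genes, in ECs of all organs. The GLI1+ cells were perivascular stromal cells sorted by GFP from Gli1GFP/+ mice, labelled SWR/J and outcrossed to BALB/c per the study's methods, pooled, expanded in culture and starved of serum before treatment, so the 3 libraries of a treatment share 1 pool of cells. The 12 EC libraries from other organs and the neural retina were not used here, because the deposited table for them lists choroidal signature genes and 0 of the 10 genes are among these.

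Leukocytes leave the blood in steps. P-selectin (Selp) and E-selectin (Sele) catch passing leukocytes by their sugar-bearing ligand PSGL-1 (Selplg) and let them roll, VCAM-1 (Vcam1) holds the integrin made of Itga4 and Itgb1, and ICAM-1 (Icam1) and ICAM-2 (Icam2) hold the integrins made of Itgal or Itgam with Itgb2. The junction is held by VE-cadherin (Cdh5), which binds catenins at adherens junctions, and by PECAM-1, ESAM, JAM-B (Jam2) and JAM-A (F11r), immunoglobulin-family proteins of the EC border. In many tissues selectin-mediated capture takes place in venules, and the genes of Sele, Vcam1 and Icam1 are classical targets of NF-κB. The choriocapillaris, the fenestrated capillary bed that faces the RPE, is one of several vessel types in this tissue.

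Selp and Sele lie on the same strand of chromosome 1, at chr1:164115264-164150026 and chr1:164048234-164057677 (GRCm38, the assembly mm10 names), with 57.6 kb between the end of Sele and the start of Selp. F11r is on the same chromosome at chr1:171437535-171464603. Icam2 (chr11:106377656-106388075, minus strand) and Pecam1 (chr11:106654217-106750628, minus strand) share chromosome 11. Icam1 (chr9:21015985-21028817) and Esam (chr9:37528078-37538319) share chromosome 9. Vcam1 is at chr3:116109949-116129688 on the minus strand, Cdh5 at chr8:104101625-104144511 and Jam2 at chr16:84774123-84825928. Exons of Icam1, Vcam1, Selp and Cdh5 overlap annotated antisense genes, and since the strand setting of the counting is not given in the sources used here, reads of both strands cannot be told apart for these 4.

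RefSeq promoter windows (GRCm38.p6) were at hand for 4 of the 10 genes, Icam1, Selp, Sele and F11r. The windows of the 3 leukocyte adhesion genes among them are shown because both selectins had nearly the same cell pattern in these data while Icam1 had another. Each runs over the 250 bases before the start of the RefSeq gene on the plus strand, which for Icam1 lies before the GENCODE start given above (Icam1 chr9:21015690-21015939, Selp chr1:164115014-164115263, Sele chr1:164047984-164048233), and capitals mark every match on either strand of the letters GGNNNTTCC, a loosened form of the NF-κB consensus.
Icam1: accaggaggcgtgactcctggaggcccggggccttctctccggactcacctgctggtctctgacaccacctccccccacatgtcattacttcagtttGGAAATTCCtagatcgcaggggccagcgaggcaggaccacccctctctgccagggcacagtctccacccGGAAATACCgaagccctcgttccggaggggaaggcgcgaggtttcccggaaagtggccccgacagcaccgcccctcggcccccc
Selp: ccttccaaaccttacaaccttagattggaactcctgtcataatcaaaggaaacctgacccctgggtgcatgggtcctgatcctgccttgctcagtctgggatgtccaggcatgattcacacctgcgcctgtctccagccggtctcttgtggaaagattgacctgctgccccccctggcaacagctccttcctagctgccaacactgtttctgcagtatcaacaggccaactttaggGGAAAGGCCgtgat
Sele: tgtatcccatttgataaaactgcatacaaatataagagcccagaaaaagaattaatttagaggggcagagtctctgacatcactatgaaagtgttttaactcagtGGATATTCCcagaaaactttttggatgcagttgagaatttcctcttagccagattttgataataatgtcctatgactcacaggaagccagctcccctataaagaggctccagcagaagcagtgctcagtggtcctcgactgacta
The Icam1 window held GGAAATTCC, 153 bases before the start and readable on both strands, and GGAAATACC, 84 bases before it and matching on the minus strand. The Sele window held GGATATTCC 145 bases before the start, and the Selp window held GGAAAGGCC 14 bases before the start, a minus-strand match. TATAAA, the classical TATA box, was found 49 bases before the start in Sele, and not in the windows of Icam1, Selp and F11r. F11r held neither string. GGNNNTTCC occurs in 15.7% and TATAAA in 12.4% of the 32851 promoter windows of this length, so that these matches are a description of the letters and not of a bound factor.

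The count tables held 3637 cells with 17168578 UMIs (B6129PF1/J) and 3928 cells with 15230413 UMIs (C57BL/6J), and the median cell had 3881 and 3174.5 UMIs. The authors sorted the cells into 13 clusters, of which 1 is RPE, 2 to 4 are ECs with high, medium and low Kdr, 5 to 8 stromal cells, 9 smooth muscle, 10 melanocytes, 11 hematopoietic cells, and 12 and 13 Schwann cells. Clusters 2, 3 and 4 hold 370, 430 and 63 cells of the B6129PF1/J library and 403, 549 and 72 cells of the C57BL/6J library. The study reports more cells for each library and other sizes for most clusters, so that the cells and clusters used here are not exactly those it describes. Kdr-high ECs are the choriocapillaris by the study's naming. A list of 8 EC markers summed to 189, 113 and 82.7 UMIs per 10,000 in clusters 2, 3 and 4 of B6129PF1/J and to 189, 113 and 81.5 in C57BL/6J, against at most 18.6 and 26.5 in any other cluster. Both libraries shared 22 cell barcodes. Outside the EC clusters, 97 of 2774 cells (3.50%) and 133 of 2904 cells (4.58%) had at least 2 of 5 EC marker genes. Since there is 1 library per strain, no test was run on single-cell values. Levels are UMIs per 10,000 UMIs of the cluster with exact Poisson 95% intervals, shares of cells have Clopper-Pearson 95% intervals and ratios have exact binomial 95% intervals. All cover counting error and not the variation between mice. The clusters were made from the expression of all genes, these 10 included, so levels between clusters are a description.

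Of the 10 genes, 9 were at least 5 times as high in ECs as in all other cells together in both libraries, and Vcam1 was the exception. In B6129PF1/J 4.86% of 11590 genes tested were at least 5 times as high in ECs, and in C57BL/6J 4.71% of 11392. The genes were chosen as endothelial adhesion genes, so that a share above this background is what their choice implies. The median fold over the 10 genes was 37.3 in B6129PF1/J and 23.5 in C57BL/6J, against 1.06 and 1.05 over all genes tested.

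The width of the gap separated the genes. Selp and Sele were nearly absent outside ECs. Selp had 93 UMIs in ECs against 1 UMI in all other cells of B6129PF1/J, a ratio of 251 (43.9 to 10008), and 79 against 5 UMIs in C57BL/6J, a ratio of 33.8 (13.9 to 107). Sele had 102 against 2 UMIs (137, 37.1 to 1151) and 83 against 2 UMIs (88.8, 23.8 to 745). Cdh5, Pecam1 and Icam2 came next. Cdh5 was 59.4-fold (48.2 to 74.1) and 45.5-fold (36.9 to 56.8) higher in ECs in the 2 libraries. Pecam1 was 59.4-fold (47.0 to 76.0) and 35.9-fold (29.4 to 44.2) higher. Icam2 was 78.4-fold (64.2 to 96.7) and 55.7-fold (45.7 to 68.6) higher. The other junction proteins and Icam1 were shared more widely. Jam2 was 15.3-fold (11.9 to 19.7) and 13.3-fold (10.4 to 17.1) higher in ECs, and Esam 13.8-fold (12.9 to 14.8) and 10.9-fold (10.2 to 11.7). F11r was 6.53-fold (5.81 to 7.36) and 6.11-fold (5.41 to 6.91) higher, and Icam1 5.64-fold (5.11 to 6.23) and 5.81-fold (5.26 to 6.43). Vcam1 was 0.571 times (0.472 to 0.686) as high in ECs as elsewhere in B6129PF1/J and 1.65 times (1.47 to 1.85) in C57BL/6J. Against the single highest cluster outside ECs, instead of all other cells together, 5 genes reached 5-fold in B6129PF1/J (Cdh5, Icam2, Pecam1, Sele and Selp) and 4 in C57BL/6J (the same without Selp).

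**Figure D1:**
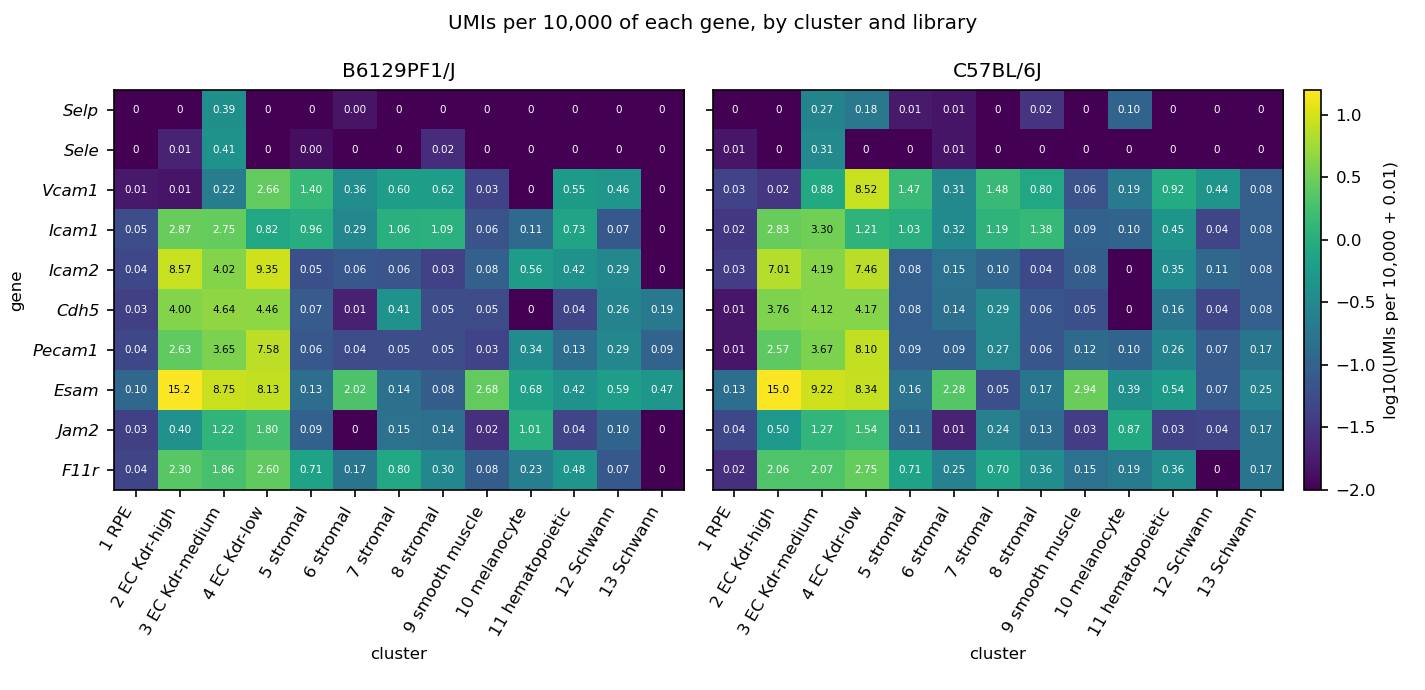
Heat map of the 10 genes (rows) by the authors' 13 clusters (columns) in each library, with the UMIs per 10,000 printed in each cell and the color on a log10 scale after adding 0.01. The EC clusters 2 to 4 carry most of the signal, Selp and Sele are confined to cluster 3 apart from levels of at most 0.18, and Vcam1 and Icam1 extend into stromal clusters 5, 7 and 8 and hematopoietic cluster 11; 0.00 stands for a level above 0 that rounds to 0.00.

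Among the ECs, the 10 genes fell into several patterns that were alike in both libraries. Cdh5 and F11r were nearly even, Pecam1, Jam2 and Vcam1 climbed from cluster 2 over cluster 3 to cluster 4, Esam and Icam1 were lower in cluster 4 than in the choriocapillaris, Icam2 dipped in cluster 3, and the selectins were found in cluster 3. By the threshold of 2-fold between clusters 4 and 2, in B6129PF1/J 3 of 8 genes with enough UMIs were higher in cluster 4 (Jam2, Pecam1 and Vcam1), where 8.42% of 7804 genes tested were, and 1 was lower (Icam1), where 13.6% were. In C57BL/6J 4 of 9 were higher (Jam2, Pecam1, Vcam1 and Selp, the last from 6 UMIs in 2 cells against 0), where 8.43% of 7922 genes tested were, and 1 was lower (Icam1), where 13.7% were. The median ratio of cluster 4 to cluster 2 was 1.12 and 1.34 over the genes tested and 0.961 and 0.942 over all genes tested. Sele in both libraries and Selp in B6129PF1/J were at or under 3 UMIs in both clusters and have no ratio.

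**Figure D2:**
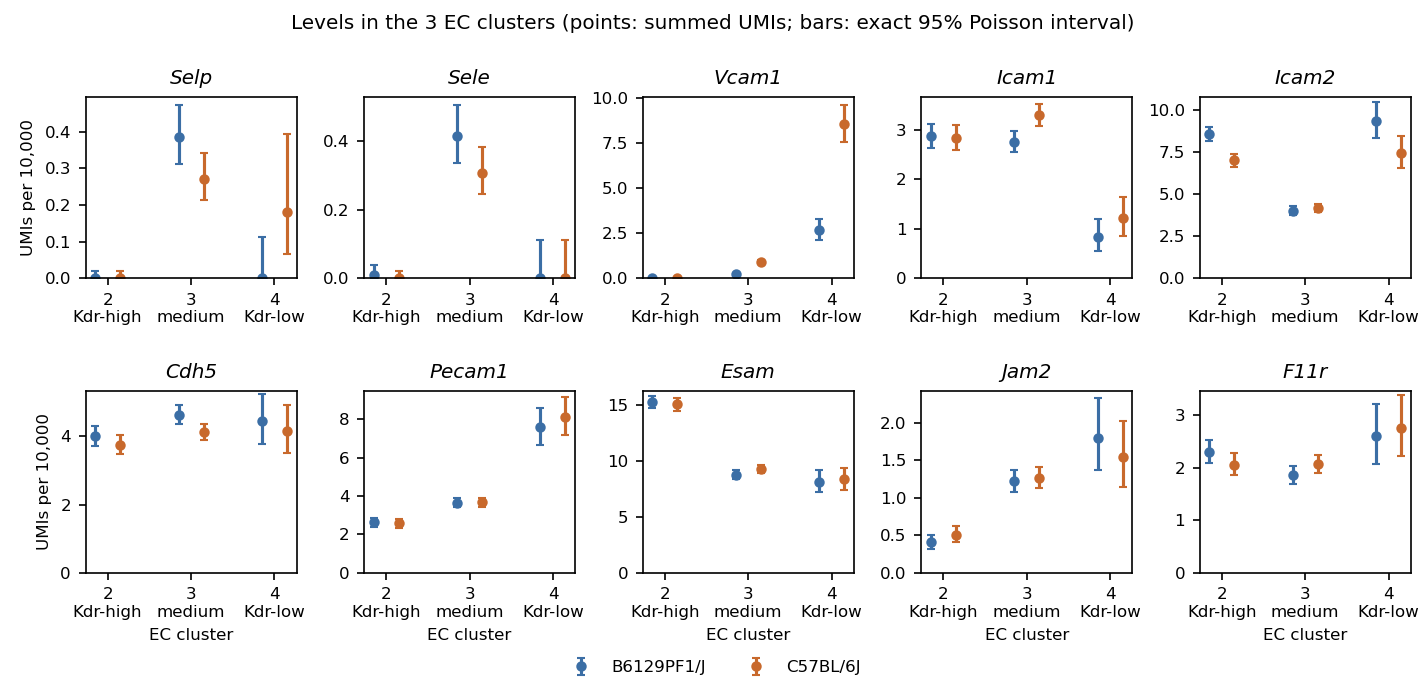
Level of each gene in EC clusters 2 (Kdr-high), 3 (Kdr-medium) and 4 (Kdr-low), in UMIs per 10,000 on a linear axis from 0 that differs between panels; points are summed UMIs of a library (blue B6129PF1/J, orange C57BL/6J) and bars exact 95% Poisson intervals. Pecam1, Jam2 and Vcam1 are highest in cluster 4, Esam is highest in cluster 2, Icam1 is lowest in cluster 4, and Selp and Sele peak in cluster 3; the libraries stand well apart for Vcam1 in cluster 4, at 2.66 and 8.52.

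The selectins marked a small set of cells in cluster 3. Selp had 93 UMIs in 45 of the 430 cluster 3 cells of B6129PF1/J (10.5%), a level of 0.385 (0.311 to 0.472), and 73 UMIs in 28 of 549 cells of C57BL/6J (5.10%), a level of 0.271 (0.212 to 0.341). In cluster 2 Selp had 0 UMIs in both libraries, where 3 UMIs would equal 0.0157 per 10,000 for B6129PF1/J, or 0.0164 for C57BL/6J, so that cluster 3 was at least 24.5-fold and 16.5-fold higher. Sele had 100 UMIs in 36 cells (8.37%), a level of 0.414 (0.337 to 0.504), and 83 UMIs in 42 cells (7.65%), a level of 0.308 (0.245 to 0.382). Its cluster 2 held 2 UMIs in B6129PF1/J, a ratio of cluster 3 to 2 of 39.5 (10.6 to 330.5), and 0 UMIs in C57BL/6J, a ratio of at least 18.7. Cluster 4 had no Sele UMI in either library, and Selp had 6 UMIs in 2 cells of the C57BL/6J library and none in B6129PF1/J. With 63 and 72 cells, cluster 4 had the fewest UMIs of the EC clusters, and its count of 0 allows up to 0.0917 per 10,000 for B6129PF1/J, or 0.0907 for C57BL/6J (3 UMIs). RPE, which should lack both selectins, had a UMI of Selp in 0 of 407 and 0 of 374 cells and of Sele in 0 of 407 and 1 of 374 cells (0.267%), at medians of 5263 and 3406.5 UMIs per cell, and the median cluster 3 cell had 4147 and 3430 UMIs.

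Cells with both selectins were more than the product of the shares of cells would give. In cluster 3, 12 B6129PF1/J and 10 C57BL/6J cells held UMIs of Selp and Sele, where the product of both shares gives 3.77 and 2.14 cells. Vwf, the endothelial clotting protein stored with P-selectin in the same granules, was detected in 42 of the 45 Selp-positive cells in B6129PF1/J, in 21 of 28 in C57BL/6J, and in 33 of 36 and 36 of 42 Sele-positive cells. It was common in the whole cluster, in 291 of 430 and 319 of 549 cells, and the products give 30.5 and 16.3 cells for Selp and 24.4 and 24.4 for Sele. Vcam1 was detected in 7 of 45 and 17 of 28 of the Selp-positive cells, where the products give 3.14 and 4.79. Deeper cells hold more genes of any kind, and these counts are at full depth. All cells were also thinned to 1700 UMIs, for the venous, arterial and capillary genes that follow. The pairs of Selp with Sele and of Selp with Vcam1 are given at full depth only.

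After thinning, 18 and 15 cluster 3 cells (B6129PF1/J and C57BL/6J) kept a Selp UMI, and the share of them with Nr2f2 was above that of the other cluster 3 cells in both libraries. Nr2f2, a transcription factor of venous identity, was detected in 44.4% (21.5 to 69.2%) of Selp-positive and 10.4% (7.66 to 13.8%) of other cluster 3 cells of B6129PF1/J, and in 26.7% (7.79 to 55.1%) and 7.49% (5.41 to 10.1%) in C57BL/6J. The intervals did not overlap in B6129PF1/J and overlapped in C57BL/6J. Vwf was detected in 61.1% (35.7 to 82.7%) against 44.4% (39.6 to 49.4%), and in 66.7% (38.4 to 88.2%) against 35.8% (31.7 to 39.997%). Of 7 arterial genes, Gja5, Gja4, Hey1 and Bmx were at 0 in the Selp-positive cells of both libraries, and Sox17, Efnb2 and Sema3g were not. In B6129PF1/J, Gja5 was also in 0 of the 412 other cluster 3 cells, and Bmx in 3.16% of them. Gja4 and Hey1 were in 0 of 18 and 0 of 15 Selp-positive cells, against 14.3% and 7.52% of the others in B6129PF1/J and 9.18% and 5.62% in C57BL/6J. A count of 0 among so few cells allows shares up to 18.5% and 21.8%, so that a lack of these transcripts was not detectable at this number of cells. Sox17 was in 11.1% of Selp-positive against 34.2% of other cells in B6129PF1/J and in 6 of 15 cells against 33.3% in C57BL/6J, opposite ways with overlapping intervals. Efnb2 was in 11.1% against 12.6% and 6.67% against 9.74%, and Sema3g in 0 against 8.74% and 6.67% against 5.06%. Among 4 capillary genes, Esm1 and Car4 were in none of the Selp-positive cells, against 11.4% and 7.87% (Esm1) and 1.21% and 2.25% (Car4) of the others, while most of them held Plvap, in 77.8% against 91.7% and 86.7% against 87.3%, and many held Kdr, in 38.9% against 49.3% and 26.7% against 38.8%. For all 11 arterial and capillary genes the intervals overlapped in both libraries. Ephb4, another venous gene, was in 16.7% against 19.2% of B6129PF1/J and in 26.7% against 13.7% of C57BL/6J cells, in opposite directions. Ackr1, a chemokine scavenger of venules, was seen in 1 Selp-positive cell of B6129PF1/J and in none of C57BL/6J. The Selp-positive and other cells had like depths before thinning, with medians of 3819.5 and 4160.5 UMIs in B6129PF1/J and 3310 and 3431 UMIs in C57BL/6J. The Sele-positive cells, chosen for this comparison after the data were seen, numbered 13 and 16 after thinning. They had Nr2f2 in 30.8% against 11.3% of cells and in 4 of 16 cells against 7.50%, with overlapping intervals. In B6129PF1/J, Vwf was in 84.6% (54.6 to 98.1%) of Sele-positive and 43.9% (39.1 to 48.8%) of other cluster 3 cells, and these intervals stood apart. Ephb4 was in 7.69% against 19.4% there, with overlapping intervals. The Sele-positive cells had medians of 7291 and 5890.5 UMIs before thinning, above those of the other cells, 4099 and 3392 UMIs.

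**Figure D3:**
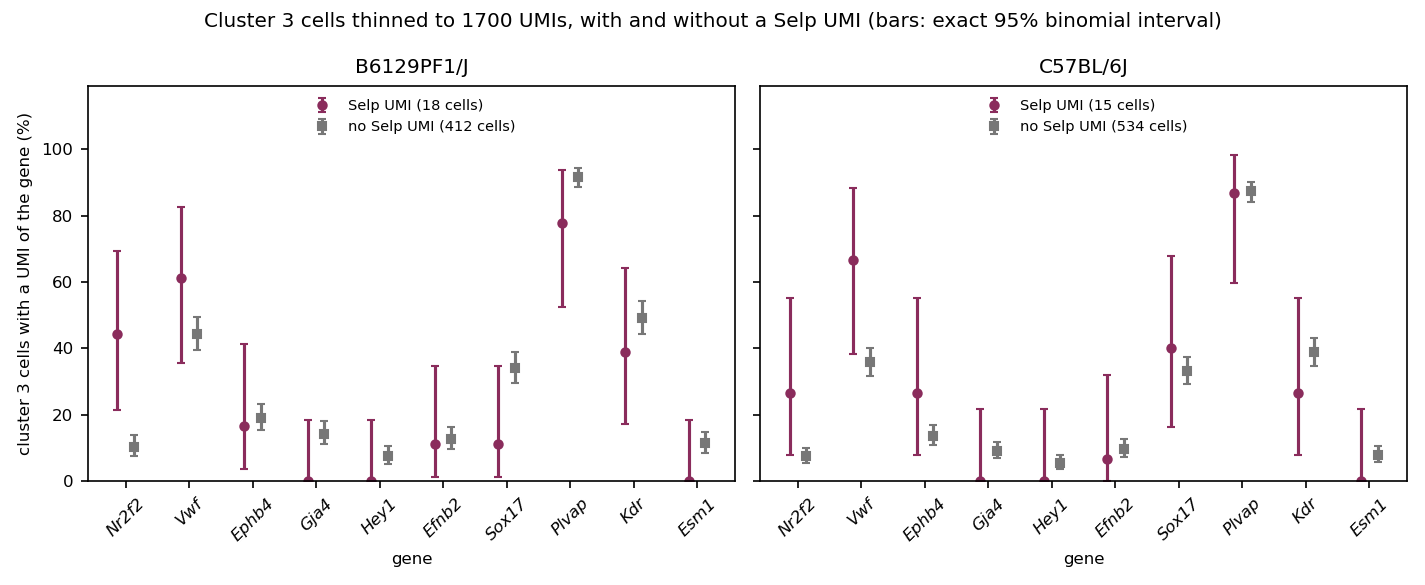
Share of cluster 3 cells, thinned to 1700 UMIs, with a UMI of each venous, arterial or capillary gene (x axis) among cells with (purple circles) and without (grey squares) a Selp UMI; bars are exact 95% binomial intervals. Nr2f2 is in 44.4% against 10.4% of B6129PF1/J cells and 26.7% against 7.49% of C57BL/6J cells, and is the one plotted gene whose intervals stand apart, in B6129PF1/J. Gja4, Hey1 and Esm1 are at 0 in the Selp-positive cells of both libraries, whereas Sox17 is in 11.1% and in 6 of 15, Plvap in 77.8% and 86.7% and Kdr in 38.9% and 26.7% of them.

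Vcam1 was highest in Kdr-low ECs, and was also found in stromal cells and in cells with macrophage genes. In B6129PF1/J its level was 0.00525 in cluster 2, from 1 UMI, 0.216 (0.161 to 0.283) in cluster 3 and 2.66 (2.13 to 3.28) in cluster 4. In C57BL/6J it was 0.0219 from 4 UMIs, 0.880 (0.771 to 0.999) and 8.52 (7.56 to 9.58), the last of which was 5.39 (4.17 to 6.86) with each cell thinned to 1700 UMIs, a depth at which deep and shallow cells count alike. The share of cluster 2 cells with a Vcam1 UMI, 0.270% and 0.993%, was no higher than that of RPE, 0.491% and 1.34%, and counts as background. Cluster 4 was 12.3-fold (8.65 to 17.7) above cluster 3 in B6129PF1/J and 9.69-fold (8.12 to 11.6) in C57BL/6J. Without the 5 cluster 4 cells with most Vcam1 in each library, left out after the data were seen, it was 5.72-fold (3.62 to 8.96) and 2.76-fold (2.07 to 3.63) above cluster 3. Outside ECs, Vcam1 had 1.40 (1.27 to 1.54) and 1.47 (1.33 to 1.62) in stromal cluster 5, where 295 of 848 and 245 of 839 cells held a UMI. Stromal cluster 7 had 0.601 (0.447 to 0.790) and 1.48 (1.19 to 1.83), and hematopoietic cluster 11 had 0.548 (0.370 to 0.783) and 0.923 (0.698 to 1.2). Cluster 11 holds several leukocyte types, and its Vcam1 came almost entirely from cells with macrophage genes. The cells with at least 2 of 4 macrophage markers, 56 of 106 and 80 of 127, carried 29 of the 30 and 52 of the 56 Vcam1 UMIs of the cluster. The Vcam1 level in these cells was 1.02 (0.681 to 1.46) in B6129PF1/J and 1.44 (1.07 to 1.89) in C57BL/6J.

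Within cluster 4 Vcam1 was unevenly spread. A UMI was found in 21 of 63 cells (33.3%) in B6129PF1/J and in 29 of 72 (40.3%) in the C57BL/6J library, and the 5 highest cells held 52 of 87 UMIs (59.8%) and 216 of 282 UMIs (76.6%). In B6129PF1/J these cells had 16, 15, 8, 7 and 6 UMIs, and in C57BL/6J 76, 54, 40, 28 and 18. In the same order their total UMIs were 18318, 4518, 12749, 3994 and 4021, and 16155, 15919, 15428, 2487 and 8634. The cell with 16 and the cells with 76, 54 and 40 were the deepest cluster 4 cells of their libraries. Per 10,000 UMIs, Vcam1 was at 11.9 in the 5 cells against 1.23 in the others of B6129PF1/J, and at 36.8 against 2.42 in C57BL/6J. Cldn5, a tight-junction protein of ECs, stood at 47.0 (40.8 to 53.9) in these 5 cells and 49.9 (47.4 to 52.6) in the other cluster 4 cells of B6129PF1/J, and at 52.0 (46.4 to 58.2) and 48.8 (46.2 to 51.5) in C57BL/6J. Ptprc, the leukocyte antigen CD45, and Pdgfra, a stromal receptor, had 0 UMIs in them, and Pdgfrb and Col1a1 had 2 and 1 UMIs in those of B6129PF1/J and 0 in those of C57BL/6J. Not every EC gene was even. Emcn, an EC sialomucin, was at 2.52 in the 5 cells against 5.82 in the others of B6129PF1/J and at 0.853 against 5.66 in C57BL/6J, and Plvap at 0.459 against 2.26 and 0.853 against 3.67. Mgp, a matrix protein of the vessel wall, was higher in them, at 161.0 against 87.8 and 219 against 89.1. After thinning, few cluster 4 cells with a Vcam1 UMI held Plvap, the diaphragm protein of fenestrated capillaries and venules. In B6129PF1/J it was in 0 of 13 (0 to 24.7%) against 15 of 50 cells (17.9 to 44.6%). In C57BL/6J it was in 1 of 23 against 15 of 49 cells (4.35%, 0.110 to 21.9%, against 30.6%, 18.3 to 45.4%). These intervals overlapped in both libraries. The arterial gene Bmx was in 69.2% (38.6 to 90.9%) against 30.0% (17.9 to 44.6%) of B6129PF1/J and in 47.8% (26.8 to 69.4%) against 42.9% (28.8 to 57.8%) of C57BL/6J cells, and Sox17 in 76.9% against 66.0% and in 69.6% against 79.6%. The intervals of Bmx and Sox17 overlapped as well. With 13 and 23 Vcam1-positive cells, such overlap does not show that both groups of cells are alike. In both libraries Plvap was found in a smaller and Bmx in a larger share of the Vcam1-positive cells, while Sox17 went opposite ways.

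**Figure D4:**
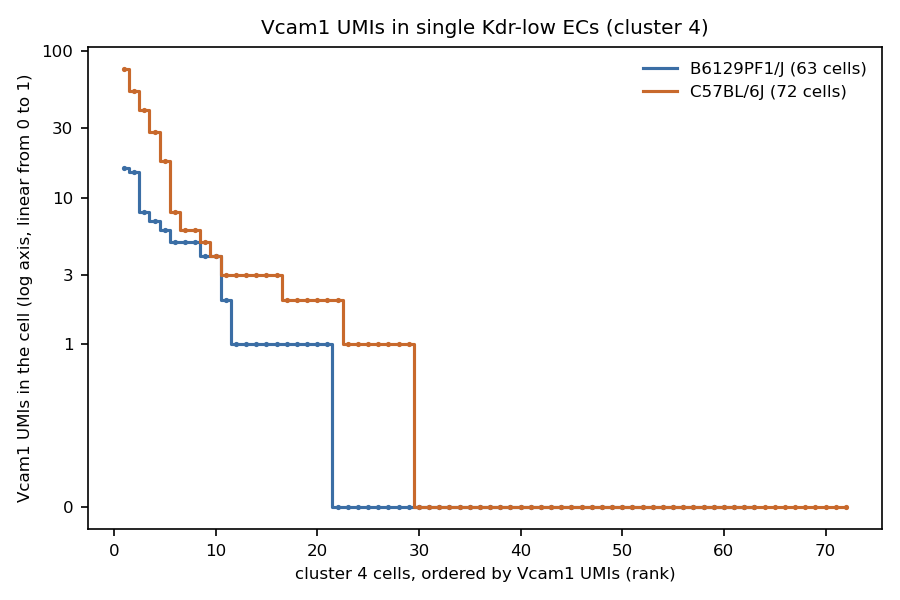
Vcam1 UMIs of every cluster 4 cell, ordered from the highest to the lowest within each library (x axis, rank; y axis, UMIs in the cell, logarithmic above 1 and linear from 0 to 1; blue B6129PF1/J, orange C57BL/6J). The curves part in the first 5 cells, which reach 16 UMIs in B6129PF1/J and 76 in C57BL/6J, and 42 and 43 cells have none. The UMIs are not scaled to the depth of the cell.

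Icam1, unlike Vcam1, was highest in the fenestrated capillaries and in cluster 3. Its levels in clusters 2, 3 and 4 were 2.87 (2.64 to 3.12), 2.75 (2.54 to 2.97) and 0.825 (0.544 to 1.2) in B6129PF1/J and 2.83 (2.59 to 3.09), 3.30 (3.08 to 3.52) and 1.21 (0.864 to 1.65) in C57BL/6J, so that cluster 4 was 3.48-fold and 2.34-fold lower than cluster 2. A UMI was detected in 67.8% and 59.3% of cluster 2 cells and in 27.0% and 29.2% of cluster 4 cells, against 1.97% and 1.07% of RPE cells. Stromal cells had Icam1 as well, with 0.964 and 1.03 in cluster 5 and 1.06 and 1.19 in cluster 7. These levels lie within the interval of cluster 4 in both libraries. Cluster 4 was thus where Vcam1 was high and Icam1 low, in contrast to the choriocapillaris with Icam1 and next to no Vcam1. Icam2 took neither course. It had 8.57 (8.16 to 8.99), 4.02 (3.77 to 4.28) and 9.35 (8.33 to 10.5) in clusters 2, 3 and 4 of B6129PF1/J and 7.01 (6.64 to 7.41), 4.19 (3.95 to 4.44) and 7.46 (6.56 to 8.46) in C57BL/6J. Clusters 2 and 4 were indistinguishable within counting error, with ratios of 1.09 (0.963 to 1.23) and 1.06 (0.925 to 1.22), and cluster 3 was 2.13-fold and 1.68-fold lower than cluster 2. No other cluster exceeded 0.563.

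At the junctions, VE-cadherin did not follow the vessel type. Cdh5 had 3.9997 (3.72 to 4.29), 4.64 (4.37 to 4.92) and 4.46 (3.77 to 5.25) in clusters 2, 3 and 4 of B6129PF1/J, and cluster 4 over cluster 2 was 1.12 (0.928 to 1.33) there and 1.11 (0.917 to 1.33) in C57BL/6J. F11r was 1.13 (0.883 to 1.42) and 1.34 (1.05 to 1.68) times as high in cluster 4 as in cluster 2. Pecam1 was 2.88-fold (2.46 to 3.36) and 3.15-fold (2.70 to 3.66) higher in cluster 4 than in cluster 2, with cluster 3 between them at 1.39-fold (1.24 to 1.55) and 1.43-fold (1.28 to 1.59) over cluster 2. In cluster 4 of C57BL/6J, 5 of 72 cells held 118 of 268 Pecam1 UMIs (44.0%). With cells thinned to 1700 UMIs, the Pecam1 level in cluster 4 went from 7.58 to 8.40 in B6129PF1/J and from 8.10 to 6.45 in C57BL/6J. Cluster 4 stayed past 2-fold over cluster 2 in both libraries. Jam2 climbed as well, with 0.404 (0.319 to 0.505), 1.22 (1.08 to 1.37) and 1.80 (1.37 to 2.33) in B6129PF1/J and 0.504 (0.406 to 0.618), 1.27 (1.13 to 1.41) and 1.54 (1.15 to 2.03) in C57BL/6J. Cluster 4 was 4.46-fold (3.12 to 6.34) and 3.06-fold (2.13 to 4.35) above cluster 2, while clusters 3 and 4 did not differ beyond counting error in C57BL/6J (1.22, 0.889 to 1.64). Esam went the other way. It had 15.2 (14.7 to 15.8) in cluster 2, 8.75 (8.38 to 9.13) in cluster 3 and 8.13 (7.18 to 9.17) in cluster 4 of B6129PF1/J, and cluster 4 was 1.87-fold and 1.80-fold lower than cluster 2, short of the 2-fold threshold.

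Some junction genes were also found outside ECs. Esam had 2.68 (2.45 to 2.93) and 2.94 (2.69 to 3.20) in smooth muscle cluster 9, where 243 of 373 and 294 of 463 cells held a UMI, and 2.02 (1.83 to 2.22) and 2.28 (2.07 to 2.50) in stromal cluster 6. It is the only one of the 10 genes above 1 UMI per 10,000 in these 2 clusters. F11r had 0.709 (0.619 to 0.807) and 0.715 (0.619 to 0.822) in stromal cluster 5, and 0.801 (0.622 to 1.02) and 0.698 (0.501 to 0.947) in stromal cluster 7. Jam2 reached 1.01 (0.463 to 1.92) and 0.867 (0.397 to 1.65) in melanocytes, from 4 of 16 and 7 of 26 cells. Cdh5 had 0.412 (0.287 to 0.573) and 0.289 (0.169 to 0.463) in stromal cluster 7, from 26 of 185 cells (14.1%, 9.39 to 19.9%) and 15 of 158 cells (9.49%, 5.41 to 15.2%), against 1.97% and 0.267% of RPE cells. Of these Cdh5-positive cells, 1 in each library also held a Pecam1 UMI. Thinned to 1700 UMIs, the shares were 3.78% (1.53 to 7.64%) and 5.06% (2.21 to 9.73%) in cluster 7 and 0.737% (0.152 to 2.14%) and 0.267% (0.00677 to 1.48%) in RPE, so that the intervals overlapped in B6129PF1/J and parted in C57BL/6J.

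The counter-receptors were found mainly in hematopoietic cells. Of 10 genes for leukocyte ligands and integrins, 9 were highest in hematopoietic cluster 11 in both libraries, the exception being Itgb1, which most cells make. Selplg, the selectin ligand, had 2.23 (1.85 to 2.66) and 2.90 (2.49 to 3.36) in cluster 11. Itgb2 had 1.88 (1.54 to 2.28) and 2.52 (2.14 to 2.96), and Itga4 had 1.19 (0.917 to 1.51) and 0.825 (0.612 to 1.09). None of the 6 and 7 counter-receptor genes with enough UMIs was 5-fold higher in ECs. Of 9 intracellular and membrane partners of the junction, Jup (plakoglobin) and Ptprb (VE-PTP, the phosphatase of VE-cadherin) were at least 5-fold higher in ECs in both libraries. Ptprb was 4.31-fold (3.78 to 4.92) and 3.69-fold (3.25 to 4.20) higher in cluster 4 than in cluster 2, and Jup was 4.42-fold and 5.04-fold lower. Tjp1 (ZO-1) was 2.56-fold (1.68 to 3.83) and 2.48-fold (1.57 to 3.84) higher in cluster 4, and Vcl had a ratio of 0.188 (0.0381 to 0.568) from 3 UMIs in cluster 4 of C57BL/6J and of 0.734 (0.389 to 1.28) in B6129PF1/J. No other partner passed 2-fold in either direction. Among 13 other endothelial adhesion genes, 11 had a row. Of 9 tested, Cd34 and Podxl were 5-fold higher in ECs in both libraries. Of 8 tested, Emcn, Jam3 and Pvrl2 were at least 2-fold lower in cluster 4 than in cluster 2 in both libraries. Over all genes tested, 4.86% and 4.71% were 5-fold higher in ECs. Against cluster 2, 8.42% and 8.43% were at least 2-fold higher in cluster 4, and 13.6% and 13.7% lower. Jam3, the JAM-C partner of Jam2, was 6.98-fold and 12.5-fold lower in cluster 4, the reverse of Jam2. Of 8 genes for NF-κB and interferon regulators, none was 5-fold higher in ECs, and Nfkb2 alone passed 2-fold between clusters 4 and 2, with a ratio of 0.426 (0.0844 to 1.34) from 3 UMIs in cluster 4 of B6129PF1/J.

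The genes most alike to each adhesion gene over the 26 cluster levels (13 clusters in 2 libraries, Pearson correlation of log2 levels with an offset of 0.1, 11193 genes compared) are given as a description, since the points share libraries and cells. Selp was closest to Lhx6 (0.911), Lrg1 (0.882) and Sele (0.834), and Sele to Serpina3g (0.898), Lhx6 (0.842) and Ttc21a (0.839). Lrg1 had 4.18 and 3.47 in cluster 3 and at most 0.642 in clusters 2 and 4. Cdh5 was closest to Erg (0.969), an EC transcription factor, Pecam1 to She (0.972) and Icam2 to Gimap5 (0.987). For Esam it was Apold1 (0.924), for Jam2 N4bp3 (0.921), for F11r Mllt4 (0.933), the afadin that binds JAM-A, and for Icam1 Nostrin (0.937). Vcam1 had the weakest nearest genes, Ifih1 (0.834), Ctsh (0.830) and Dram1 (0.818). The closest genes of the other 9 were at 0.898 or more.

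Between the strains, the ECs differed in Vcam1 and in little else of this set. Over clusters 2 to 4, 1 of the 10 genes was at least 1.5-fold higher in C57BL/6J, where 4.12% of 9507 genes tested were, and 0 were lower, where 4.09% were. The median fold was 1.00 over the 10 genes and 1.02 over all genes tested. Vcam1 had 1.08 UMIs per 10,000 in C57BL/6J and 0.301 in B6129PF1/J, a fold of 3.58 (2.96 to 4.34). It was 4.08-fold (3.01 to 5.62) higher in cluster 3 and 3.21-fold (2.51 to 4.13) higher in cluster 4. Outside ECs it was 2.47-fold (1.73 to 3.56) higher in cluster 7 and 1.68-fold (1.06 to 2.72) in cluster 11, and did not differ beyond counting error in cluster 5, the largest source of Vcam1 UMIs (1.05, 0.915 to 1.2). In cluster 7 of C57BL/6J, 1 cell held 21 and 5 cells held 33 of the 87 UMIs. A UMI was found in 44 of 158 cluster 7 cells there and in 44 of 185 of B6129PF1/J. In cluster 11, 5 cells held 23 of 30 UMIs in B6129PF1/J and 22 of 56 in C57BL/6J. The folds of clusters 7 and 11 were not recomputed without such cells. Without the 5 cluster 4 cells with most Vcam1 in each library, an alternative added after the data were seen, the fold over clusters 2 to 4 was 3.35 (2.63 to 4.29), and in cluster 4 alone it was 1.96 (1.29 to 3.05). Thinned to 1700 UMIs a cell, the levels in cluster 4 were 5.39 (4.17 to 6.86) in C57BL/6J and 2.71 (1.81 to 3.89) in B6129PF1/J. The share of cluster 4 cells with a UMI after thinning was 31.9% (21.4 to 44.0%) in C57BL/6J and 20.6% (11.5 to 32.7%) in B6129PF1/J, with overlapping intervals, and in cluster 3 it was 9.47% (7.15 to 12.2%) against 4.42% (2.68 to 6.81%). Each library is tissue of 2 mice and was sequenced once, so strain, mouse and library cannot be told apart.

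The other 9 genes lay between 0.779 and 1.12 times the B6129PF1/J level over the EC clusters. Icam1 was at 1.12 (1.04 to 1.21), Icam2 at 0.874 (0.829 to 0.922) and Cdh5 at 0.914 (0.858 to 0.973), small differences beyond counting error. Selp was at 0.813 (0.595 to 1.11) and Sele at 0.779 (0.576 to 1.05), within it. Pecam1, Esam and F11r were at 1.01, 0.998 and 1.01. Each library mixes a male and a female mouse, and cells with a UMI of Xist, the RNA of the inactive X chromosome, come from the female. In cluster 4, the Vcam1 level was higher in cells with a Xist UMI in both libraries, 3.56 (2.72 to 4.58) against 1.70 (1.12 to 2.48) in B6129PF1/J and 10.7 (9.14 to 12.5) against 6.69 (5.55 to 7.99) in C57BL/6J. The share of cells did not follow in C57BL/6J. Vcam1 was found in 12 of 28 cells with and 9 of 35 without Xist in B6129PF1/J, and in 11 of 30 and 18 of 42 in C57BL/6J. The levels rest on the 5 cells with most Vcam1, of which 4 and 2 held Xist. Without these cells the levels were 1.78 (1.13 to 2.66) against 0.778 (0.402 to 1.36) and 2.63 (1.79 to 3.73) against 2.27 (1.58 to 3.15), with overlapping intervals. In cluster 3 the intervals overlapped in both, with 0.199 against 0.237 and 0.993 against 0.743. Selp in cluster 3 went opposite ways, with 0.243 (0.167 to 0.341) in cells with and 0.569 (0.434 to 0.733) without Xist in B6129PF1/J, and 0.333 (0.247 to 0.441) against 0.196 (0.126 to 0.292) in C57BL/6J. This split was made after the data were seen, cells without a Xist UMI may include female cells, and 1 mouse of each sex per library leaves sex and mouse impossible to tell apart.

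The deletion of Ihh in ECs addressed what the Indian hedgehog made by the choriocapillaris does in this tissue, and the mean FPKM of each adhesion gene above 1 FPKM stayed within 1.26-fold of the control. The deposited values are group means over 3 libraries without an error, so no test was run on them here. Ihh itself was at 0.454 FPKM in Ihh iΔEC/iΔEC and 1.53 in Ihh+/+ tissue, and Gli1, a target of the pathway, at 3.15 and 9.40. Of the 8 adhesion genes with at least 1 FPKM, 0 were 1.5-fold higher or lower. Among 11400 genes tested 2.11% were that much higher and 2.51% lower. The median ratio of deleted to control was 0.877 over the 8 genes and 0.975 over all genes tested. Icam1 was the only one of the 10 with a higher mean after deletion, at 18.3 against 17.2 FPKM (1.07). The other leukocyte-binding genes were at 8.49 against 9.38 FPKM for Icam2 (0.906), 5.90 against 7.19 for Vcam1 (0.821), 0.486 against 0.571 for Selp and 0.354 against 0.494 for Sele. The junction genes were at 10.7 against 13.1 FPKM for Cdh5 (0.819), 10.9987 against 11.1 for Pecam1 (0.989), 13.1 against 14.3 for Esam (0.915), 5.47 against 6.88 for Jam2 (0.795) and 6.50 against 7.66 for F11r (0.849).

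The means of markers of the ECs moved as these did. The 8 EC markers summed to 257 FPKM after deletion and 312 in controls, a ratio of 0.825, and 7 of 8 were lower, from 0.726 to 1.04. The ratios of sums were 0.646 for 5 stromal, 0.632 for 3 melanocyte, 1.21 for 4 RPE, 0.95 for 4 macrophage and 1.06 for 3 hematopoietic markers, and the 3 photoreceptor markers, a sign of adhering neural retina, summed to 25.2 against 71.2 FPKM. Their part in the adhesion genes' means was not tested. In tissue, fewer cells of a type and less RNA per cell cannot be told apart. Compared per length of transcript, the level in control tissue was highest for Icam1 (17.2 FPKM), Esam (14.3) and Cdh5 (13.1), and lowest for Selp (0.571) and Sele (0.494). Neighbours in this order cannot be separated without an error. In the pathway lists, Itgax, an integrin chain of macrophages and dendritic cells, was 1.55-fold higher after deletion (6.32 against 4.08 FPKM), and it was the only one of 9 counter-receptor genes past 1.5-fold. None of the 9 junction partners, 9 other adhesion genes and 8 regulators with at least 1 FPKM passed, with Nfkbia at 24.3 against 17.5 FPKM (1.39). Ackr1, under 1 FPKM and named after its values were seen, was 2.96-fold lower, at 0.147 against 0.436 FPKM.

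**Figure D5:**
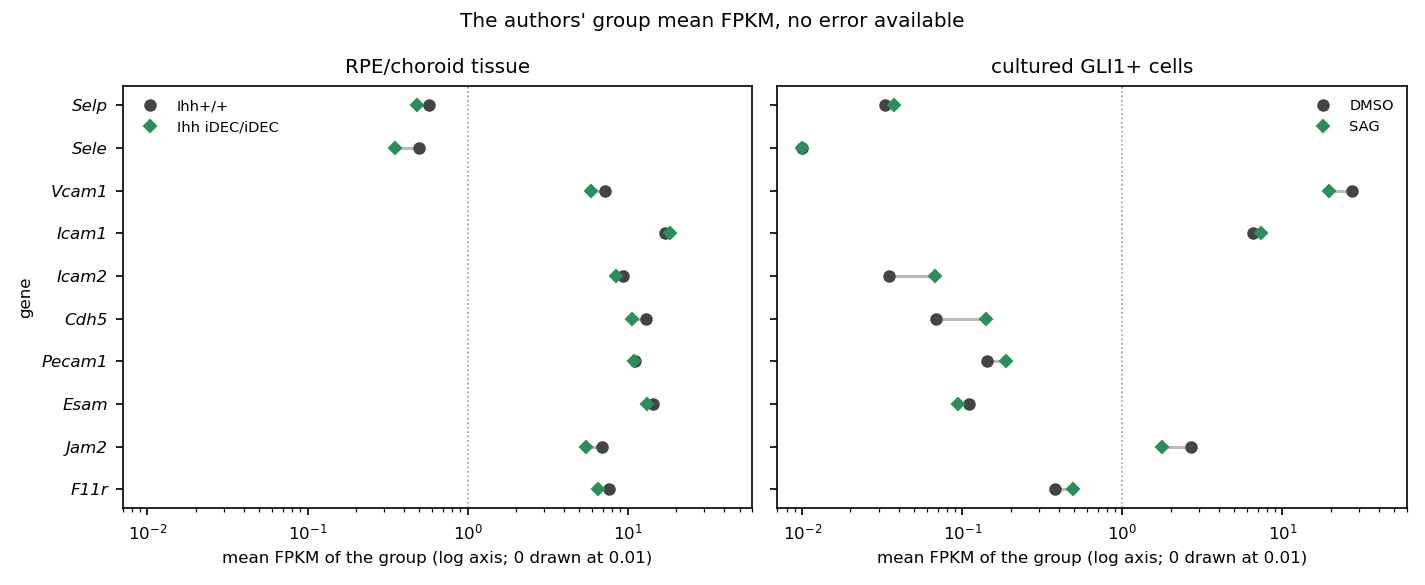
The authors' group mean FPKM of each gene on a logarithmic axis, with 0 drawn at 0.01 and a dotted line at 1 FPKM: left, RPE/choroid tissue (black circles Ihh+/+, green diamonds Ihh iΔEC/iΔEC); right, cultured GLI1+ cells (black circles DMSO, green diamonds SAG). No error bars can be drawn from means; in tissue 8 genes lie above 1 FPKM with little distance between the groups, and in the cultured cells Vcam1, Icam1 and Jam2 alone do.

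In cultured GLI1+ cells the set shrank to 3 genes above 1 FPKM, of which Vcam1 and Jam2 had lower means with SAG. The mean of Gli1 was 3.65 FPKM with SAG and 0.0280 with DMSO, and that of Ptch1, another target of the pathway, 10.1 and 1.13. Jam2 was 1.52-fold lower, at 1.77 FPKM with SAG and 2.70 with DMSO, and was the 1 of the 3 genes tested past 1.5-fold. Among 10317 genes tested 2.44% were that much lower, and 1.32% higher, where 0 of the 3 were. Jam2 lies just past the threshold, and a pseudocount of 0.1 FPKM took it below. Vcam1 was 1.40-fold lower, at 19.5 against 27.2 FPKM, and Icam1 was at 7.32 against 6.52 FPKM (1.12). Over all genes tested the median ratio was 1.04. The cultured cells carried Vcam1 at a higher FPKM than the whole tissue, 27.2 against 7.19 in the controls of each, though the 2 tables are separate experiments and were not scaled to each other. Icam2, Cdh5, Pecam1, Esam, F11r and Selp were at most at 0.492 FPKM and Sele was listed at 0 in both groups. Of the 8 EC markers only Egfl7 and Emcn reached 1 FPKM, and the 3 hematopoietic markers were at most at 0.0693 FPKM. In the freshly isolated cells, Gli1 was found in all of stromal clusters 5 to 8, at 0.277, 0.206, 0.342 and 0.364 UMIs per 10,000 in B6129PF1/J, the clusters in which Vcam1 had 1.40, 0.362, 0.601 and 0.617. Of 8 other endothelial adhesion genes tested none passed 1.5-fold with SAG, Cd34 being at 13.9 against 20.7 FPKM (1.48-fold lower). The labels give no separate cultures or days for the 3 libraries of a treatment.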

How the data were processed

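Single-cell libraries of sorted RPE/choroid cells were aligned to mm10 with Cell Ranger and clustered with Seurat 2.1 by the authors, who removed cells under 1700 UMIs and deposited UMI counts per gene and cell together with cluster names. The authors also deposited average UMIs per cluster on a natural log scale, the mean over cells of ln(1 + UMIs per 10,000). Of these averages, 76.4% and 80.0% lay within 0.005 of values recomputed from the counts, and the largest differences were 0.534 and 0.531, so they served only as an alternative. For bulk RNA, the submitters' processing notes name CASAVA 1.8.2, FastQC, STAR 2.4.0f1, SAMtools 0.1.19, HTSeq, DESeq2 and Cufflinks 2.0.2, and the authors deposited group mean FPKM values. The same tables hold the authors' log2 fold changes and p-values between groups, which were not used. All 26 samples were assigned to groups from the labels, and 12 libraries of ECs from other organs were not analysed here.

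UMIs were summed per gene, cluster and library and given per 10,000. Genes with at least 50 UMIs (in the library, or in clusters 2 to 4) or at least 1 FPKM in the higher group entered the comparisons, with thresholds of 5-fold for ECs over other cells, 2-fold for cluster 4 over 2, and 1.5-fold for strains and bulk groups. These thresholds are of size and no test was run, since each strain had 1 library and the bulk tables hold means. A count of 0 was given a floor of 3 UMIs. PCR duplicates are removed by UMIs, and intervals and floors cover counting error only. No doublet caller was run, and removal of doublets before deposit is not stated. The ratio and interval code was tested on simulated data. Python 3.11.15 with numpy 2.4.6, scipy 1.17.1, pandas 2.3.3 and matplotlib 3.10.9 was used.

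The text names all 10 genes and up to 4 genes per comparison from 40 others in 4 lists (leukocyte counter-receptors, junction partners, other endothelial adhesion proteins, NF-κB and interferon regulators), those with the largest fold. It also names the 3 most alike genes per adhesion gene, at most, and venous, arterial and capillary genes for the comparison of cells with and without Selp, Vcam1 or Icam1. Where more than 4 list genes passed a threshold in a comparison, or a list gene is given with a value below it, it was named after its values were seen, as were the genes outside the lists in the check of hedgehog response. The regulators' values with SAG are not reported here. The genes, lists and thresholds were chosen with earlier results of these data known. Coordinates are from GENCODE vM21 and promoters from RefSeq, both on GRCm38. The alternatives varied the scale, depth, thresholds, minimum, pseudocount and the cells used.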

Additional observations from a re-analysis of the deposited data

How the results depend on the processing

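Of 46 recomputed counts of adhesion genes past a threshold, 37 stayed within 1.5 times the reported count and 9 did not. Against the highest single cluster outside ECs, 5 genes were 5-fold enriched in B6129PF1/J and 4 in C57BL/6J. The authors' averages per cluster were compared as the highest EC cluster over the highest other cluster, so that both the input and the comparison changed. With them 5 were enriched in C57BL/6J (Cdh5, Esam, Icam2, Pecam1 and Sele). In B6129PF1/J 6 were enriched, the same genes with Selp, which is within 1.5 times the reported count. After Ihh deletion, the lower fold threshold tried gave 1 gene (Jam2, 1.26-fold lower). With SAG, where Jam2 alone was called, the count was 0 with a pseudocount of 1 or 0.1 FPKM or a threshold of 2-fold. It was 2 at the lower threshold (Jam2 and Vcam1, both lower with SAG) and 3 with no minimum of FPKM (Cdh5, Icam2 and Jam2). Of these 3, Cdh5 and Icam2 were under 0.2 FPKM and higher with SAG. The strain comparison gave 1 gene, Vcam1, under every alternative run, including the one added after the data were seen that left out the 5 cells with most Vcam1. No recomputed value turned its direction.

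Of 40 levels recomputed after thinning or averaging over cells, 26 moved by less than their counting interval. Thinning to 1700 UMIs gave 0.633 to 1.26 times and averaging over cells 0.669 to 1.11 times the reported level, with the lowest of both for Vcam1 in cluster 4 of C57BL/6J (5.39 and 5.70 against 8.52), for which the cause was not tested. With thinned cells, Selp was no longer called 2-fold higher in cluster 4 than in cluster 2 of C57BL/6J. Leaving out the 5 cluster 4 cells with most Vcam1, after the data were seen, took the fold of cluster 4 over cluster 3 from 12.3 to 5.72 in B6129PF1/J and from 9.69 to 2.76 in C57BL/6J. No paired analysis was possible because the SAG and DMSO libraries, which share replicate numbers, were deposited as group means, and for the same reason leaving out a replicate and the fit with a replicate block were not run. Depth limits the selectins in cluster 4, where 63 and 72 cells were sampled, and arterial genes among the 18 and 15 Selp-positive cells.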

Other observations

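Cluster 3 cells with and without Icam1 had like shares of the venous gene Nr2f2. After thinning to 1700 UMIs, Nr2f2 was in 12.5% of the 152 Icam1-positive and 11.5% of the other cluster 3 cells of B6129PF1/J, and in 6.93% of 202 and 8.65% of the others in C57BL/6J. Vcam1-positive cells of cluster 3 held Nr2f2 in 21.1% against 11.4% and 17.3% against 7.04%, and Vwf in 78.9% against 43.6% and 48.1% against 35.4%. The intervals stood apart for Vwf in B6129PF1/J (54.4 to 93.9% against 38.7 to 48.5%) and overlapped for Vwf in C57BL/6J and for Nr2f2 in both. The intervals also overlapped in both libraries for the venous Ephb4, at 15.8% against 19.2% and 19.2% against 13.5%. The same held for the arterial Sox17, at 31.6% against 33.3% and 46.2% against 32.2%.

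The pair Icam1 and Vcam1, opposed between clusters 2 and 4, was found together in cluster 3. Of 30 Vcam1-positive cells of B6129PF1/J 26 held Icam1, where the product of the shares gives 19.3, and of 94 in C57BL/6J 74 did, where it gives 58.7. These counts are at full depth, where deeper cells hold more of both. Both cluster 4 cells of C57BL/6J with a Selp UMI also held Vcam1.

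In hematopoietic cluster 11, cells with macrophage genes held 27 of 40 Icam1 UMIs in B6129PF1/J and 18 of 27 in C57BL/6J, beside 29 of 30 and 52 of 56 Vcam1 UMIs. They were 56 of the 106 and 80 of the 127 cells of the cluster. Whether the shares of UMIs differ beyond the spread between mice could not be tested with 1 library per strain.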
